A study of Mus musculus with 5 samples.

Results

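Genes of fatty acid synthesis and desaturation were followed in mouse heart RNA, 10 in all: Srebf1, Acly, Acaca, Acacb, Fasn, Scd1, Scd4, Elovl5, Elovl6 and Me1. They were picked by gene symbol as a pathway group, and all 10 of 10 were found among the 17228 genes of the deposited table. Poly-A selected RNA came from hearts of mice aged 6 months. The controls were 2 wild-type (WT) C57BL mice without diabetes, 1 female and 1 male. The other 3 mice, 2 females and 1 male, were diabetic and carried KsJ-Lepr db/Lepr db, here db/db, a homozygous splicing mutation of the leptin receptor gene Lepr that makes mice obese and diabetic. The mutation is present in every cell, so the heart, the fat, the liver and the brain all lack the long receptor. Per the labels, the KsJ background is named only for the db/db genotype, so background and genotype cannot be told apart. The labels describe the animals kept for the study as male, yet 3 of the 5 samples are labelled female. By their sex labels the WT libraries come from different mice, and so do the db/db male and the db/db females. Whether the 2 db/db females are separate animals is not stated, so the spread between them may be technical, and p-values measure the spread between these 5 libraries. Libraries held 8356090 to 10381329 counts. Cardiomyocyte genes were abundant in all 5, with Myh6 at 17771 to 26218 CPM (counts scaled to library size, with the TMM factors of edgeR).

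Fatty acids are built in the cytosol from citrate. ATP citrate lyase (Acly) makes acetyl-CoA, the acetyl-CoA carboxylases turn it into malonyl-CoA, and fatty acid synthase (Fasn) joins malonyl units into palmitate with NADPH that malic enzyme (Me1) helps to supply. Elongases (Elovl5, Elovl6) lengthen the chain, stearoyl-CoA desaturases (Scd) place a double bond in it, and the transcription factor SREBP1 (Srebf1) raises most of these genes in liver and fat when insulin is high. The heart mainly burns fatty acids rather than building them. There, malonyl-CoA made by the mitochondrial carboxylase (Acacb) is best known as the brake on carnitine palmitoyltransferase 1, the entry of fatty acids into mitochondria. Scd4 is a desaturase of the mouse heart, described in leptin-deficient mice as responsive to leptin.

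The promoter of Scd4 is shown because this gene differed most between the groups, and those of Fasn and Elovl5 as examples of windows with matches, since Fasn makes palmitate and Elovl5 held the E-box. Acacb, Me1 and Srebf1 held matches too and are not printed. Each line gives the 250 bases before the annotated start, 5′ to 3′ on the strand of the gene, from RefSeq on GRCm38.p6. Capitals mark CCAAT boxes on either strand (CCAAT or ATTGG) and the E-box CACGTG.
Scd4 (chr19:44333076-44333325, plus strand): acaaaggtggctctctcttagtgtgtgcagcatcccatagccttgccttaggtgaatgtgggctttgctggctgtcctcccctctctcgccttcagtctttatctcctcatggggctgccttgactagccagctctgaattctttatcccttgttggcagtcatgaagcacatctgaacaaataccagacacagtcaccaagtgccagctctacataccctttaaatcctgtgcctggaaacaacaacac
Fasn (chr11:120824548-120824797, minus strand): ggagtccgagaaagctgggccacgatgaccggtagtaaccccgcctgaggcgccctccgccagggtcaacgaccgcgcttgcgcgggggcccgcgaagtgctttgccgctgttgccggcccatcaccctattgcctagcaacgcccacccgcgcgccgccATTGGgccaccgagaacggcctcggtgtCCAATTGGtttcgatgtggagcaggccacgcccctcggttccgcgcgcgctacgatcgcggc
Elovl5 (chr9:77917115-77917364, plus strand): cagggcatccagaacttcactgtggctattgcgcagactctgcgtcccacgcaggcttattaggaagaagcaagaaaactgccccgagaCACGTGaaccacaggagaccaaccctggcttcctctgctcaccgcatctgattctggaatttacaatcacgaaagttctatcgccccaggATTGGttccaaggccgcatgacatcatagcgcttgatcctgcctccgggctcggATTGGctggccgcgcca
In Fasn a forward and a reverse CCAAT box overlap. RefSeq windows were matched for 9 of the 10 genes (12 windows), and 6 motifs were searched on both strands. The only windows of Acaca (from 84195188) and Acacb (from 114165268) lie inside these genes, which begin at 84129677 and 114146321. They precede later annotated starts, so the bases before the first starts of Acaca and Acacb were not searched. A gene was counted if any of its windows held the motif, while the background counts single windows, so their shares have unlike units. The CCAAT box was found in 5 of the 9 genes and in 33.8% of all 32851 windows. In Me1 it was only in the window from 86687278, inside the gene. The Me1 window from 86695915, before the first start, held none of the motifs. The E-box was found only in Elovl5 among the 9, and in 6.02% of all windows. TATAAA was found only in Acacb, and in 12.4% of all windows. The sterol response element TCACNCCAC was in none of the 9 genes and in 1.05% of all windows. The DR4 and DR1 elements, direct repeats of AGGTCA with 4 bases or 1 base between, were also in none of the 9, and in 0.0152% and 0.0335% of all windows. The Scd4 window held none of the 6 motifs, which says only that these letters are not in these 250 bases.

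The first question was how abundant each step is in the heart. Levels between genes were compared per transcript length, as the authors' TPM, which scales counts by transcript length and library total. Me1 led with a mean of 53.5 TPM over the 5 libraries, followed by Acacb at 37.9 TPM. Elovl5 was at 14.9 TPM, Srebf1 at 14.3 TPM, Acly at 9.62 TPM, Scd4 at 8.35 TPM and Scd1 at 4.96 TPM. The cytosolic builders were low, with Fasn at 3.26 TPM and Acaca at 2.1 TPM, and Elovl6 was at 0.254 TPM. The library ranges of neighbours in this order overlapped in each case except the steps from Acacb to Elovl5 (lowest Acacb value 32.8 TPM, highest Elovl5 value 20.9 TPM) and from Acaca to Elovl6 (lowest 1.55 TPM, highest 0.36 TPM). The 10 genes together made 123 to 175 TPM per library. Their sum did not separate the groups, at 158 ± 24 TPM (SD, n = 2) in WT and 143 ± 18 TPM (SD, n = 3) in db/db (two-sided exact permutation p = 0.5).

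The study's main comparison asked what differs between the diabetic and the control heart. None of the 10 genes passed in the comparison of db/db with WT (edgeR quasi-likelihood test, adjusted p under 0.05), where 1.03% of the 12540 tested genes did. Unadjusted p was under 0.05 for 1 of the 10, Scd4, and for 1623 of the 12540 tested genes by edgeR. With limma-voom 0 of the 10 were called. DESeq2 called 1 of them, Scd4, where 1.89% of its tested genes were called. All 10 passed the filter on low counts. Their median log2 fold change was 0.16, beside -0.01 over all tested genes, and 7 were positive and 3 negative. With library totals the median was -0.03 and 4 were positive, where the median of all genes was -0.19. Apart from Scd4 the log2 fold changes ran from -0.28 (Elovl5) to 0.37 (Elovl6). The groups did not overlap on the CPM scale for Srebf1, Acacb and Scd4, all higher in db/db, where 15.1% of tested genes were higher in this way and 31.6% did not overlap in either direction. On the TPM scale the non-overlapping genes were Scd4 (higher) and Acaca and Elovl5 (lower), 3 of 10, where 40.3% of tested genes did not overlap, 3.94% higher and 36.3% lower. So of the 10 genes Scd4 was the one whose groups were apart on both scales.

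**Figure D1:**
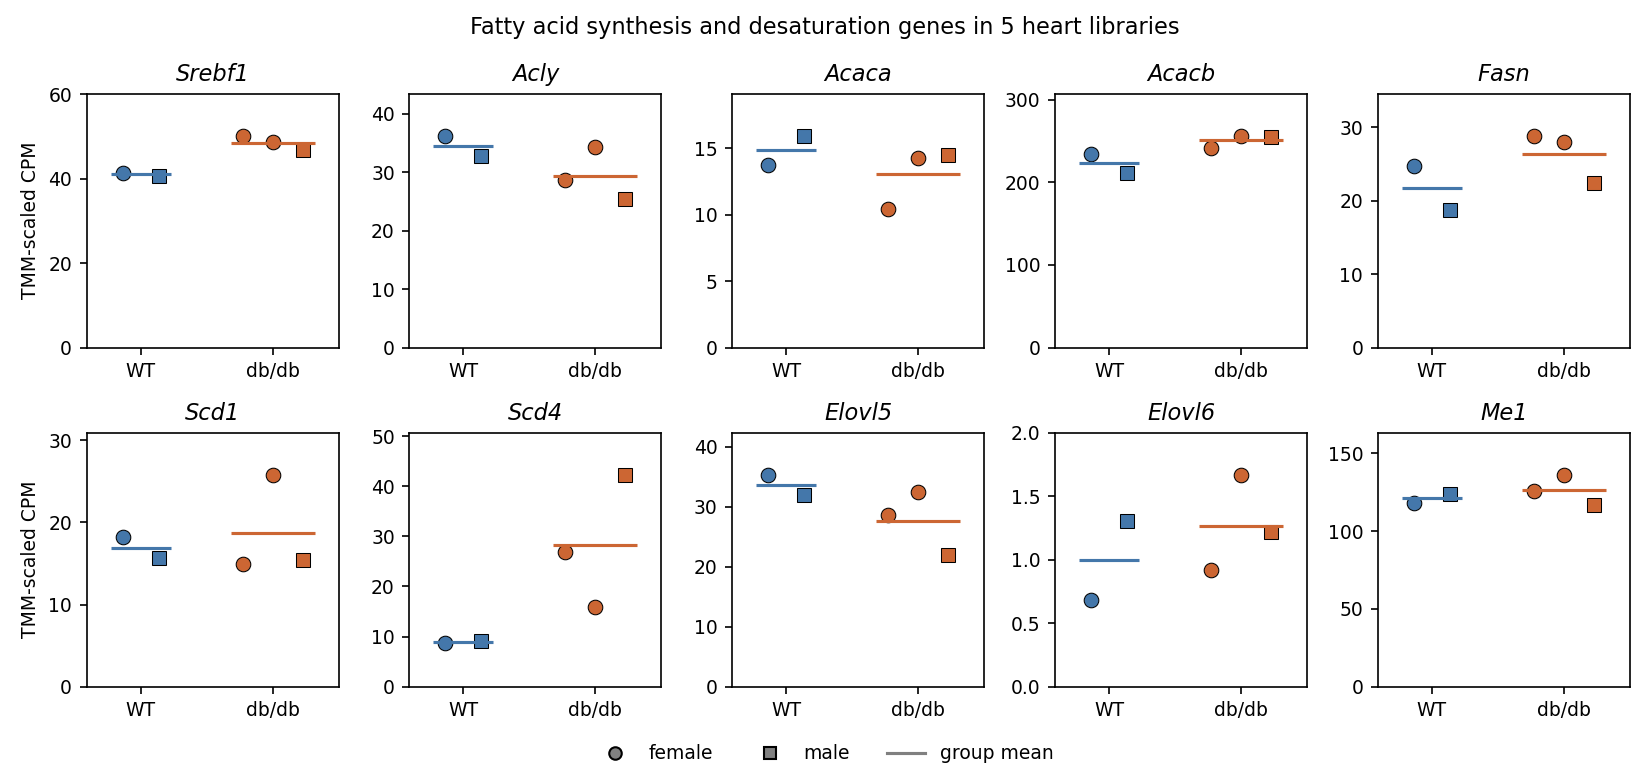
TMM-scaled CPM (y axis, from 0) of each of the 10 genes in the 2 WT and 3 db/db libraries, with circles for females, squares for males and lines for group means. Scd4 lies at 8.66 and 9.16 CPM in WT and at 15.9 to 42.3 CPM in db/db, while most other genes overlap between the groups.

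Scd4, the heart desaturase (NCBI gene 329065, chromosome 19, 44333326 to 44346743), had 88.9 and 83.7 estimated counts in the WT female and male. The db/db females had 263 and 162 counts and the db/db male 313. On the CPM scale these were 8.66 and 9.16 in WT and 26.8, 15.9 and 42.3 in db/db. Every db/db library lay above both WT libraries, and the db/db libraries spread 2.66-fold among themselves against 1.06-fold in WT. The 3 db/db libraries averaged 28.3 ± 13.2 CPM (SD, n = 3), against 8.91 ± 0.35 CPM (SD, n = 2) for WT. The log2 fold change was 1.66 (SE 0.37, edgeR adjusted p = 0.0885), a ratio of 3.15 with a 95% interval of 1.78 to 5.58. It therefore missed the threshold over all genes, and its unadjusted p of 0.00137 ranked it 194 of 12540. In the authors' deposited table Scd4 had a log2 fold change of 1.69 and a q-value of 0.000125. It was 1 of 221 genes with q under 0.05, among 16369 genes with a q-value, and the only one of these 10.

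As every db/db library lay above both WT libraries, refits of these 5 libraries could hardly reverse the direction of Scd4. Whether Scd4 was called turned on the model. Its direction was the same in 20 of 20 alternatives, with log2 fold changes from 1.11 to 1.95. It passed in 8 of them. With sex as a covariate the edgeR adjusted p was 0.0155 (log2 fold change 1.70), in a fit that called 6.63% of all tested genes. With DESeq2 its adjusted p was 0.00011. With library totals in place of TMM factors the edgeR adjusted p was 0.0448 and 1.15% of genes were called. It did not pass with limma-voom (adjusted p = 0.108, 0.909% of genes called), with RLE scaling (edgeR adjusted p = 0.0928, 1% called) or with no filter on low counts (edgeR adjusted p = 0.233, 1.56% called). Nor did it pass in the limma fits on log2(TPM + 1), log2(TPM + 0.1) and unfiltered log2(TPM + 1), with adjusted p of 0.0789, 0.0868 and 0.306, where 0.926%, 0.78% and 0% of genes were called. Leaving out single libraries moved it both ways. Omitting the WT female gave an edgeR adjusted p of 0.59, omitting the WT male 0.266 and omitting db/db female 1 0.193. It was 0.00131 without db/db female 2, the db/db library with the lowest Scd4 level, and 0.00708 without the db/db male, the one with the highest. These fits called 0.199%, 0.534%, 0.391%, 1.08% and 1.95% of all tested genes, in the same order.

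Counts in some libraries followed gene length, and those values are set beside the result. In the shortest of 10 length bins (median 794 bases) the median deviation was -0.28 on the log2 scale for the WT female, 0.28 for the db/db male and at most 0.02 from 0 in the other libraries. In the longest bin (median 7475 bases) it was 0.18 for the WT female and -0.02 for the WT male. It was -0.003 and -0.06 there for db/db females 1 and 2, and -0.10 for the db/db male. The counts and FPKM of Fasn, Acaca and Acacb imply lengths of 9874, 8537 and 8211 bases. With an offset for each library's length trend the median of the 10 genes was 0.27. Unadjusted p was then under 0.05 for 4 of them, Srebf1 (0.31), Acacb (0.31), Fasn (0.43) and Scd4, of which edgeR called 0. It was under 0.05 for 1608 of the 12540 tested genes. With sex as well it was under 0.05 for 5 of the 10, Elovl5 (-0.32) being added, and for 2307 of all tested genes. Of these 5 edgeR called 1, Scd4. The counts and FPKM of Scd4 imply a length of 2994 bases. With the offset Scd4 had a log2 fold change of 1.68 (edgeR adjusted p = 0.156, 1.2% of genes called), and 1.74 with sex as a covariate as well (edgeR adjusted p = 0.0265, 3.52% of genes called). With the db/db male and the WT female left out it was 1.22 (edgeR adjusted p = 0.000122, 3.45% of genes called), and among females it was 1.30 (edgeR adjusted p = 1.28e-05, 7.77% of genes called), both in fits with 1 WT library. These fits had 1 residual degree of freedom, so the spread behind their p-values came almost wholly from other genes and not from Scd4 itself.

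**Figure D2:**
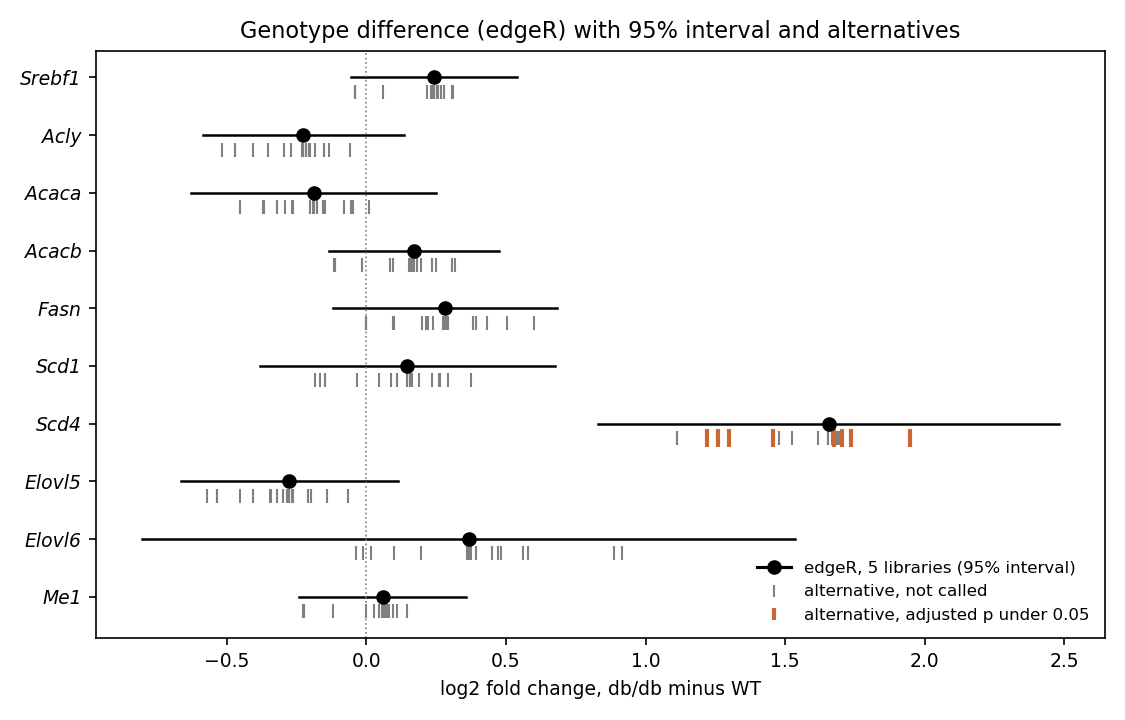
Log2 fold change, db/db minus WT, of each gene by edgeR on all 5 libraries (points, with 95% intervals) and under the alternatives (ticks below, orange where the adjusted p was under 0.05). Orange ticks appear only for Scd4, whose interval runs from 0.83 to 2.48, while the other 9 intervals include 0.

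Scd4 sits in a cluster of desaturase genes on chromosome 19 with Scd3 (44203288 to 44244016), Scd2 and Scd1 (44394450 to 44408816). Scd1, the main desaturase of liver and fat, had 187 and 144 counts in the WT female and male, 146 and 263 in the db/db females and 114 in the db/db male. On the CPM scale these were 18.2 and 15.7 in WT and 14.9, 25.8 and 15.4 in db/db, and the groups overlapped. The log2 fold change of Scd1 was 0.15 (SE 0.24, edgeR adjusted p = 0.833), a ratio of 1.11 with a 95% interval of 0.768 to 1.6. Scd2, a widely expressed isoform known for its role in brain, was at 21.7 and 18.9 CPM in WT and 17.4, 17.9 and 12.4 CPM in db/db (log2 fold change -0.34, edgeR adjusted p = 0.47). Scd3, known from skin and the Harderian gland, had 3 to 7.0 counts per library and did not pass the filter. Of the other 10 tested genes within 500000 bases of Scd4, edgeR called 0 and unadjusted p was under 0.05 for 1 (Hif1an), with log2 fold changes from -0.50 to 0.38.

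Within the Scd genes, Scd4 made 26.5% and 30.6% of the TPM in the WT female and male. In db/db it made 58.2% and 37.2% in the females and 71.1% in the male. The mean share of Scd4 was 28.6% ± 2.9 (SD, n = 2) in WT and 55.5% ± 17.1 (SD, n = 3) in db/db, without overlap. The share of Scd2 was lower in each db/db library, at 18.7% ± 6.2 (SD, n = 3) against 36.1% ± 1.2 (SD, n = 2). That of Scd1 overlapped, at 24.9% ± 11.6 (SD, n = 3) against 34.0% ± 1.3 (SD, n = 2). Its difference of -9.19 percentage points became -15.8 when db/db female 2 was omitted and -4.90 when the db/db male was. The 4 genes together made 13.3 to 17.5 TPM in WT and 18.2 to 21.0 TPM in db/db. The two-sided exact permutation p was 0.2 for the Scd4 share, 0.4 for the Scd1 share, and 0.1 for the Scd2 share and the summed level, which is the smallest p that 2 against 3 libraries can give. With 9 such quantities tested, the Benjamini-Hochberg adjusted exact permutation p was 0.36 for the Scd4 share and 0.3 for the Scd2 share. The summed level and the Scd2 and Scd3 shares were added after the values were seen. The Scd transcripts are similar, and the estimated counts of Scd4 were not whole in 4 of 5 libraries, so some reads were divided between genes. Of all stretches of 50 bases in the Scd4 transcript of GENCODE M21, 3.44% occur in another Scd transcript, and of those of 100 bases 0.53%. No source used here gives the read length.

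**Figure D3:**
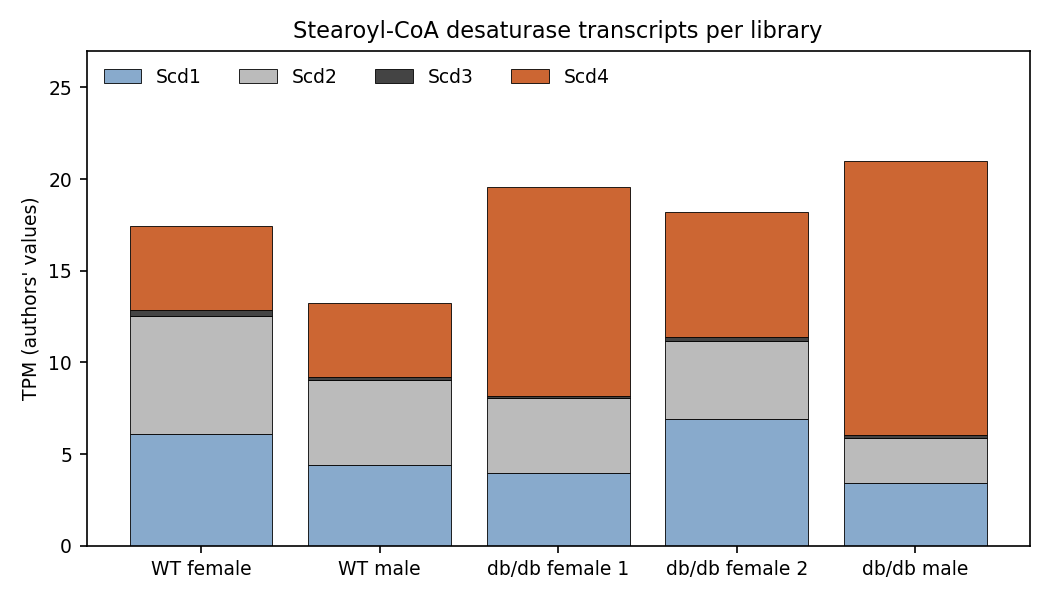
Stacked bars of the authors' TPM for Scd1, Scd2, Scd3 and Scd4 in each library. The Scd4 segment is 4.62 and 4.06 TPM in the WT female and male and 11.4, 6.77 and 14.9 TPM in the db/db libraries, while the Scd2 segment is smallest in the db/db male at 2.44 TPM.

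The acetyl-CoA carboxylases make malonyl-CoA, Acaca in the cytosol for synthesis and Acacb at the mitochondrial surface. Acacb (chromosome 5, 114146321 to 114250761) had 2408 and 1939 counts in the WT female and male and 2363, 2611 and 1886 in db/db females 1 and 2 and the male. These were 234 and 211 CPM in WT and 241, 256 and 255 CPM in db/db, so the groups were apart by little. For Acacb the log2 fold change was 0.17 (SE 0.14, edgeR adjusted p = 0.63), a ratio of 1.12 with a 95% interval of 0.911 to 1.39. Acaca (chromosome 11, 84129677 to 84401651) had 141 and 146 counts in WT and 102, 145 and 107 in db/db. On the CPM scale it was at 13.7 and 15.9 in WT and 10.4, 14.2 and 14.4 in db/db, with overlap. The log2 fold change of Acaca was -0.19 (SE 0.20, edgeR adjusted p = 0.731), with a 95% interval from -0.63 to 0.25. Per length, Acacb made 94.7% and 93.3% of the carboxylase TPM in WT and 96.0%, 94.9% and 94.8% in db/db. The difference of 1.26 percentage points had the smallest two-sided exact permutation p the design allows (0.1, adjusted 0.3). It was 1.96 percentage points without the WT female and 0.559 without the WT male.

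Srebf1, the gene of SREBP1 (chromosome 11, 60199084 to 60222686), had 425 and 374 counts in WT and 492, 497 and 346 in db/db. At 41.4 and 40.8 CPM in WT and 50.2, 48.8 and 46.7 CPM in db/db, its db/db libraries all lay above WT. The log2 fold change was 0.24 (SE 0.14, edgeR adjusted p = 0.472), a ratio of 1.18 with a 95% interval of 0.961 to 1.45. The counts cover all of its transcripts, so the isoforms of SREBP1 were not told apart. With limma on log2(TPM + 1) the value was -0.04, where the median of all genes was -0.24.

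Fasn, Acly and Me1 carry citrate and reducing power into palmitate. Fasn (chromosome 11, 120805947 to 120824547) was at 24.8 and 18.7 CPM in the WT female and male and 28.9, 28.1 and 22.4 CPM in db/db females 1 and 2 and the male. Within each genotype the male was lower than the females, and the groups overlapped. For Fasn the log2 fold change was 0.28 (SE 0.18, edgeR adjusted p = 0.533), a ratio of 1.22 with a 95% interval of 0.92 to 1.61. It was 0.10 without the WT male, 0.50 without the WT female and 0.60 with the db/db male and the WT female left out, and passed in none of these edgeR fits. Acly (chromosome 11, 100454359 to 100528000) was at 36.2 and 32.8 CPM in WT and 28.7, 34.2 and 25.4 CPM in db/db, with overlap. For Acly the log2 fold change was -0.23 (SE 0.16, edgeR adjusted p = 0.583), with a 95% interval from -0.59 to 0.13. Me1 (chromosome 9, 86581363 to 86695914) had the smallest log2 fold change in size of the 10 genes, at 118 and 124 CPM in WT and 125, 136 and 117 CPM in db/db. For Me1 the log2 fold change was 0.06 (SE 0.14, edgeR adjusted p = 0.891), a ratio of 1.04 with a 95% interval of 0.847 to 1.28.

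The elongases act after palmitate or on dietary polyunsaturated chains. Elovl5, which elongates polyunsaturated fatty acids (chromosome 9, 77917365 to 77984519), had 363 and 293 counts in WT and 280, 331 and 163 in db/db. These were 35.3 and 31.9 CPM in WT and 28.6, 32.5 and 22.0 CPM in db/db, where db/db female 2 overlapped WT. The log2 fold change was -0.28 (SE 0.18, edgeR adjusted p = 0.529), with a 95% interval from -0.67 to 0.11. Elovl6, which takes palmitate to stearate (chromosome 3, 129532252 to 129641930), had 7 and 12 counts in WT and 9, 17 and 9 in db/db. At this depth its 95% interval ran from -0.80 to 1.53 on the log2 scale around 0.37 (edgeR adjusted p = 0.808). For Elovl6 any difference within that interval remains compatible with these counts. Among Elovl1 to Elovl7, Elovl5 made 41.3% and 37.8% of TPM in WT and 31.5%, 37.6% and 22.0% in db/db (exact permutation p = 0.2, adjusted 0.36). The difference in its share was -9.16 percentage points, and -4.99 without the db/db male. Elovl1, which elongates saturated very long chains, was at 25.1 to 30.6 TPM, and Elovl2, Elovl3, Elovl4 and Elovl7 did not pass the filter on low counts.

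Sex was compared in a model with genotype. None of the 10 genes passed for male against female by edgeR, where 1.4% of tested genes did. DESeq2 called 0 of the 5 to which it gave an adjusted p, against 5.94% of all such genes. Unadjusted p was under 0.05 for 3 of the 10 by edgeR and for 1 by DESeq2. Over all genes it was under 0.05 for 1870 of 12540 by edgeR and for 1095 by DESeq2. Scd4 had a log2 difference of 0.68, male minus female (SE 0.27, edgeR adjusted p = 0.3), Fasn -0.37 (SE 0.15, edgeR adjusted p = 0.244) and Elovl5 -0.32 (SE 0.15, edgeR adjusted p = 0.334). The interaction of genotype and sex, which rests on 1 residual degree of freedom and on single males, was called for 0 of the 10 (1.16% of tested genes) and had an unadjusted p under 0.05 for 1, Scd4 (0.91, edgeR adjusted p = 0.293).

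Around these genes, 68 further genes in 7 groups were examined, of which 67 were in the table and 62 were tested. None of the 62 passed by edgeR (0), DESeq2 (0) or limma-voom (0). By edgeR 15 of the 62 had an unadjusted p under 0.05, where 1623 of all 12540 tested genes did. Of 15 lipogenic regulators, 9 had positive values, with a median log2 fold change of 0.09. Insig1, which holds SREBPs in the endoplasmic reticulum and is itself an SREBP target, had the smallest p there, at 16.5 and 22.2 CPM in WT and 11.4, 12.2 and 11.7 CPM in db/db (log2 fold change -0.72, edgeR adjusted p = 0.12). Of 10 genes of acetyl-CoA and NADPH supply, 6 were positive (median 0.10), and Acss2, the cytosolic acetyl-CoA synthetase, had -0.35 (edgeR adjusted p = 0.343). Of 10 genes of malonyl-CoA turnover and carboxylase control, 6 were positive (median 0.08). Prkaa2, the AMPK catalytic subunit α2 that inhibits the carboxylases by phosphorylation, was at 81.0 and 63.3 CPM in WT and 50.1, 50.8 and 39.3 CPM in db/db (log2 fold change -0.62, edgeR adjusted p = 0.124).

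Of 7 tested genes of the elongation cycle, 4 were positive (median 0.01), led by Elovl1 at 0.29 (edgeR adjusted p = 0.475). Of 7 desaturases and their partners, 3 were positive (median -0.08). Cyb5r3, the reductase that passes electrons to cytochrome b5 for desaturation, had 0.37 (edgeR adjusted p = 0.345). The other genes of this group with unadjusted p under 0.05, named after their values were seen, had negative values. They were the polyunsaturated fatty acid desaturases Fads1 (-0.37, edgeR adjusted p = 0.354) and Fads2 (-0.96, edgeR adjusted p = 0.378). Each was lower in every db/db library than in both WT libraries, as were 16.5% of tested genes on the CPM scale. Of 8 genes of mitochondrial fatty acid synthesis, 6 were positive (median 0.31), and Mcat, its malonyl transferase, had 0.47 (edgeR adjusted p = 0.346). Of 5 acyl-CoA synthetases 1 was positive (median -0.21), and Acsl5 had -0.57 (edgeR adjusted p = 0.16), with 21.1 and 24.2 CPM in WT and 15.1, 15.9 and 14.7 CPM in db/db. These medians moved with the length offset. They were then -0.06 for the elongation cycle, -0.23 for the desaturases, 0.13 for mitochondrial fatty acid synthesis and -0.13 for the acyl-CoA synthetases.

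In the model with sex, 7 of the 62 passed, 3 higher and 4 lower, against 6.63% of all genes in that fit. They were chosen by this after their values were seen. Prkaa2 (-0.69, edgeR adjusted p = 0.00483), Mlxipl (-0.81, edgeR adjusted p = 0.0194), Insig1 (-0.67, edgeR adjusted p = 0.0401) and Srebf2 (-0.62, edgeR adjusted p = 0.0446) fell in that fit. Mlxipl encodes the carbohydrate sensor ChREBP and Srebf2 the sterol regulator SREBP2. Cpt1b, the muscle carnitine palmitoyltransferase that malonyl-CoA inhibits (0.40, edgeR adjusted p = 0.0309), Cyb5r3 (0.42, edgeR adjusted p = 0.032) and Thrsp (0.89, edgeR adjusted p = 0.0416) rose in it. Thrsp encodes Spot 14, which goes up with lipid synthesis in liver and fat. With the length offset beside sex 3 of the 62 passed, where 3.52% of all genes were called. They were Prkaa2 (edgeR adjusted p = 0.0265) and Mlxipl (edgeR adjusted p = 0.035), lower, and Cpt1b (edgeR adjusted p = 0.0298), higher. With the db/db male and the WT female left out, 1 WT library remained, so for these groups only effect sizes are given from that fit. Its log2 fold changes were -0.91 for Insig1 and 0.54 for Mid1ip1, a partner of Spot 14. Both are named because of their values in that fit. Among the other genes called with sex, Cyb5r3 aside, it gave 0.41 for Thrsp, 0.28 for Cpt1b, -0.39 for Srebf2, -0.33 for Prkaa2 and -0.12 for Mlxipl. Mlxipl was at 39.0 CPM in the WT female, 20.3 CPM in the WT male and 15.4 to 21.3 CPM in db/db.

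**Figure D4:**
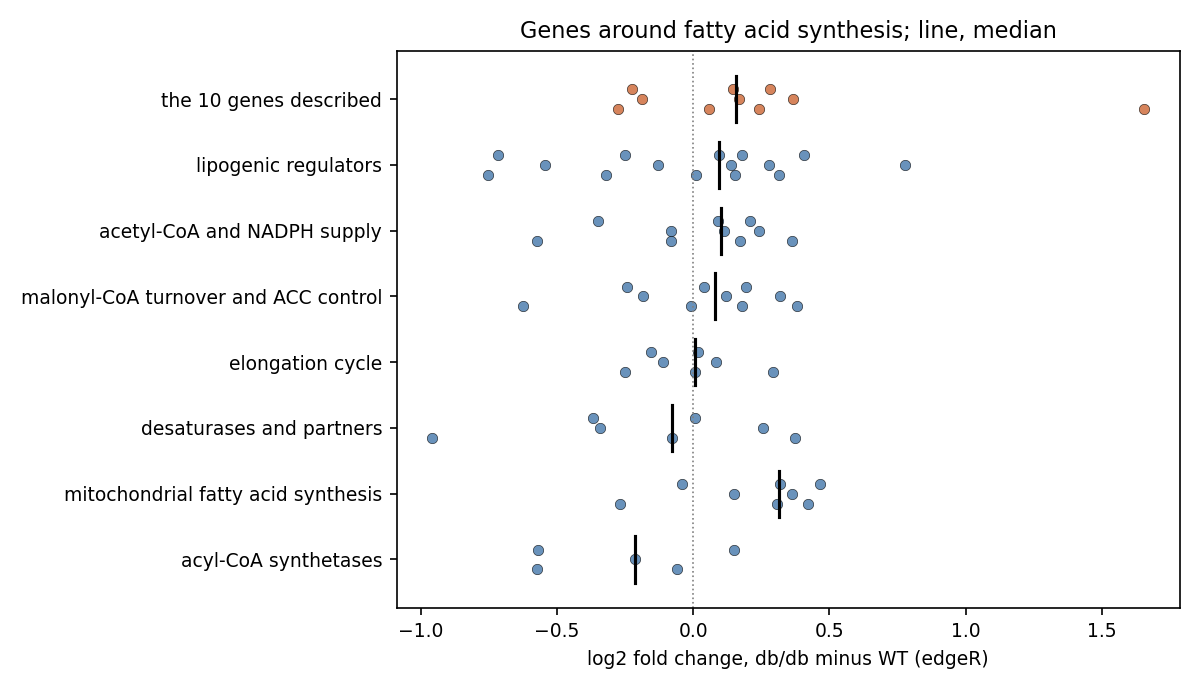
Log2 fold changes, db/db minus WT by edgeR, of the 10 genes (orange) and of the tested genes in 7 groups around them (blue), with a line at each median. Scd4 at 1.66 stands to the right, and the group medians lie between -0.21 (acyl-CoA synthetases) and 0.31 (mitochondrial fatty acid synthesis).

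Lipogenic genes are abundant in fat and liver, so markers of other cells were read in the same libraries. Fewer cells of a type and less RNA per cell cannot be told apart in whole heart. Of 29 tested marker genes in 9 lists, edgeR called 0 and limma-voom 0. By edgeR 8 of the 29 had an unadjusted p under 0.05, where 1623 of all 12540 tested genes did. DESeq2 called 2 of the 29 higher, Fabp4 and Tnnt2, where 1.89% of all genes were called. With sex as a covariate 5 were higher (Fabp4, Cidea, Myl2, Tnnt2, Myl3) and 1 lower (Nppa), where 6.63% of all genes were called. With the db/db male and the WT female left out 0 were higher and 2 lower (Nppa and Kdr), where 3.45% were called. Summed levels are given for 8 of the 9 lists. The summed level of the 8 white adipocyte markers was 375 and 592 CPM in WT and 637 to 1186 CPM in db/db. Nearly all of it was Fabp4, which endothelial cells also express (log2 fold change 0.88, edgeR adjusted p = 0.223). Of these 8 markers 2 were tested by edgeR, 1 positive and 1 negative, with a median log2 fold change of -0.08. The defining fat markers were near 0, with Adipoq at 0 to 8 counts and Plin1 at 0 to 2 counts per library. Summed levels also stood higher in db/db without overlap for 5 brown adipocyte markers (96.1 to 97.1 CPM in WT, 118 to 147 CPM in db/db), 4 hepatocyte markers (0.876 to 1.74 against 2.55 to 5.8 CPM) and 6 ventricular cardiomyocyte markers (68392 to 75514 against 81317 to 101173 CPM). Of these, 3 brown adipocyte, 1 hepatocyte and 6 ventricular markers passed the filter on low counts. The hepatocyte sums are small, as a count of 0 alone allows 0.289 to 0.359 CPM per gene. Among single tested genes 15.1% were higher and 16.5% lower without overlap on the CPM scale. Summed levels of 4 atrial markers were lower without overlap (405 to 503 against 246 to 364 CPM), and those of endothelial, fibroblast and macrophage markers overlapped. Of the 4 atrial markers 2 were tested by edgeR, 1 positive and 1 negative, with a median log2 fold change of -0.19. The genes with the smallest p in these lists were Cidea (0.64, edgeR adjusted p = 0.238), Alb (1.64, edgeR adjusted p = 0.285), Tnnt2 (0.62, edgeR adjusted p = 0.199) and Nppa (-0.58, edgeR adjusted p = 0.199). For the lists that overlapped they were Kdr (-0.62, edgeR adjusted p = 0.241), Dcn (0.23, edgeR adjusted p = 0.588) and Adgre1 (-0.998, edgeR adjusted p = 0.235). The part of these cell types in the Scd4 values was not tested.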

How the data were processed

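Tools named in the submitters' processing notes are HISAT, Bowtie2 and DESeq2, with neither version nor role, and the build is GRCm38.p6. Per the file headers, the authors deposited estimated read counts (expected counts, not normalized), FPKM values and TPM values per gene, and a comparison of their own with p-values, q-values and log2 fold changes. No source used here names the counting program. Of the deposited counts 91.4% were whole, with no tolerance. After 1 emptied line was dropped 17228 genes remained, and 23 symbols turned into dates were restored by gene ID.

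Counts were rounded, filtered with edgeR's filterByExpr, scaled by TMM and tested with edgeR 4.0.16 (R 4.3.3; robust quasi-likelihood test, Benjamini-Hochberg adjustment over all tested genes, 3 residual degrees of freedom). CPM values are TMM-scaled. Standard errors come from the F statistics, and 95% intervals use edgeR's total degrees of freedom. A count of 0 allows up to 3 counts, 0.289 to 0.359 CPM, which covers counting error only. Shares of TPM were compared with an exact permutation test over libraries (10 arrangements). Alternatives were DESeq2 1.42.0, limma-voom and limma-trend (3.58.1) on log2(TPM + 1) and log2(TPM + 0.1) for genes over 1 TPM in 2 libraries and, with + 1, unfiltered, RLE scaling, library totals, no filter, a mean over 1 CPM, sex or the title number as a covariate, females only, a length offset (loess, span 0.3; length implied by counts and FPKM) and leaving out each library. Fits with fewer libraries kept the genes tested, and where 1 WT library was left it was assumed to vary like the others. Leaving out the db/db male together with the WT female, the libraries with the strongest length trends, was chosen after seeing the data.

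The genes, lists and tests were chosen with earlier results of these data known. All 10 genes are named; in each other list the called genes (at most 4), or else the gene with the smallest p, are named. The summed level of 1 of the 9 marker lists is not reported here. The tests were tried on simulated data.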

Additional observations from a re-analysis of the deposited data

How the results depend on the processing

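Genes called for db/db against WT numbered 129 by edgeR, 238 with DESeq2, 974 in females only, 832 with sex as a covariate, 441 with the length offset and sex, 256 with no filter, 0 with limma on log2(TPM + 1) with no filter (2179 at an unadjusted p under 0.05), 433 without the db/db male and WT female, and 25 to 244 when single libraries were left out. With the replicate block (the number in the sample title) 80 were called. Whether the title numbers pair the libraries could not be decided from these values. Deviations from group means correlated at 0.13 and -0.19 between the WT female and the db/db libraries of its number (12540 genes). Between the WT male and the db/db library of its number they correlated at -0.12. Deviations of the WT libraries from their mean mirror each other, so each WT male correlation is the WT female correlation with its sign changed. Of the 10 genes, 1 (Scd4) was called instead of 0 with DESeq2, females only, library totals, sex, the length offset with sex, and without the db/db male and WT female; leaving out single libraries gave 0 to 1. For sex, 176 genes were called by edgeR, 294 with DESeq2, 419 with no filter and 30 with the length offset, a fit added after seeing the data.

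Where the direction reversed, no value passed and the cause was not tested. On library totals and the TPM scales the median of all genes was also lower, by 0.17 to 0.28 on the log2 scale. With limma on log2(TPM + 1), filtered or not, and on log2(TPM + 0.1), the log2 fold changes were -0.0396 and -0.0424 for Srebf1, -0.11 and -0.11 for Acacb, -0.0029 and -0.0019 for Fasn, -0.15 and -0.18 for Scd1, and -0.22 and -0.23 for Me1. With library totals Acacb had -0.018, Scd1 -0.033 and Me1 -0.12. With the length offset and sex Acaca had 0.00999. Without the db/db male and WT female Elovl6 had -0.012. With single libraries left out Scd1 ran from -0.16 to 0.29, Elovl6 from -0.0374 to 0.89 and Me1 from -0.00041 to 0.11, the Elovl6 share from -0.0852 to 0.258 percentage points and the summed TPM of the 10 genes from -32.4 to 1.23. Ranges with single libraries left out were -0.29 to -0.05 for Acaca, 0.10 to 0.25 for Acacb, -0.35 to -0.14 for Acly and -0.41 to -0.14 for Elovl5. Elovl6 was too low for the filtered TPM fits. Its 7 to 17 counts per library limit what could be seen of it.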
